A study of Mus musculus with 20 samples.

Results

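A set of 29 genes that make, package, sense or clear the inhibitory transmitter GABA, or that mark the interneurons releasing it, was followed in medial prefrontal cortex after an injection of CDS or PBS. The members were taken by gene symbol from a fixed list, and all 29 were present in both comparison tables, which hold the same 20375 genes. They comprised 17 signalling genes and 12 interneuron genes. All 29 are protein-coding.

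The tissue came from C57BL/6 mice in 4 groups of 5 samples, 20 in all. CDS and PBS groups were taken at postnatal day 47, 5 days after the injection into the prefrontal cortex (5 dpi). CDS and PBS groups were also taken at postnatal day 84, at 12 weeks of age and 6 weeks after injection. The labels leave the abbreviation CDS unexplained, and by its title the series concerns a microglia depletion model; every group was injected, and no uninjected group is listed. The labels do not say whether samples within a group are separate animals, so the errors measure the spread between these samples.

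For each time, the files give the authors' result per gene as a q-value beside the log2 ratio of CDS to PBS. Values per sample, expression levels and depth were not analysed here. The identity of the tissue could therefore not be checked against the levels of its marker genes. A gene was called where the q-value was under 0.05. A standard error was recovered from the fold change and the q-value at 5 dpi, is called implied below, and gives the 95% intervals. In bulk tissue, fewer cells of a type and less RNA per cell cannot be told apart.

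GABA is made from glutamate by 2 decarboxylases, Gad1 and Gad2, loaded into vesicles by the transporter Slc32a1 and broken down by the transaminase Abat. It opens GABA-A receptors, chloride channels built of alpha, beta and gamma or delta subunits, and activates GABA-B receptors, which signal through G proteins and are a pair of Gabbr1 and Gabbr2. Cortical interneurons arise from the medial or the caudal ganglionic eminence of the embryo. The medial branch, marked by Lhx6, gives the parvalbumin and somatostatin classes, and the caudal branch, marked by Adarb2, gives the Vip and most Lamp5 cells.

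At 5 dpi, 4 of the 29 genes were lower and 1 was higher in CDS than in PBS cortex. The interneuron marker Adarb2, the calcium-binding protein calretinin (Calb2), the decarboxylase Gad1 and the GABA-A subunit Gabrg1 fell. Neuropeptide Y (Npy) rose. The 5 calls are 17.2% of the members, where 5.92% of all genes were called in the authors' deposited table. Of protein-coding genes alone, as all members are, 7.09% were called. Calls in one direction made up 3.18% of all genes for lower and 2.75% for higher values in the authors' deposited table. At an unadjusted p under 0.05, recovered from the q-values, 8 members were lower and 1 was higher. That is 31.0% of the members, against 19.1% of all genes and 20.3% of protein-coding genes. At q under 0.01, or with Bonferroni adjustment, Adarb2 alone was called. The share of calls was not tested, because the members were chosen with results of these data known. The median log2 fold change was -0.03 over the 29 members, -0.02 over all genes and 0.00 over protein-coding genes in the authors' deposited table.

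**Figure D1:**
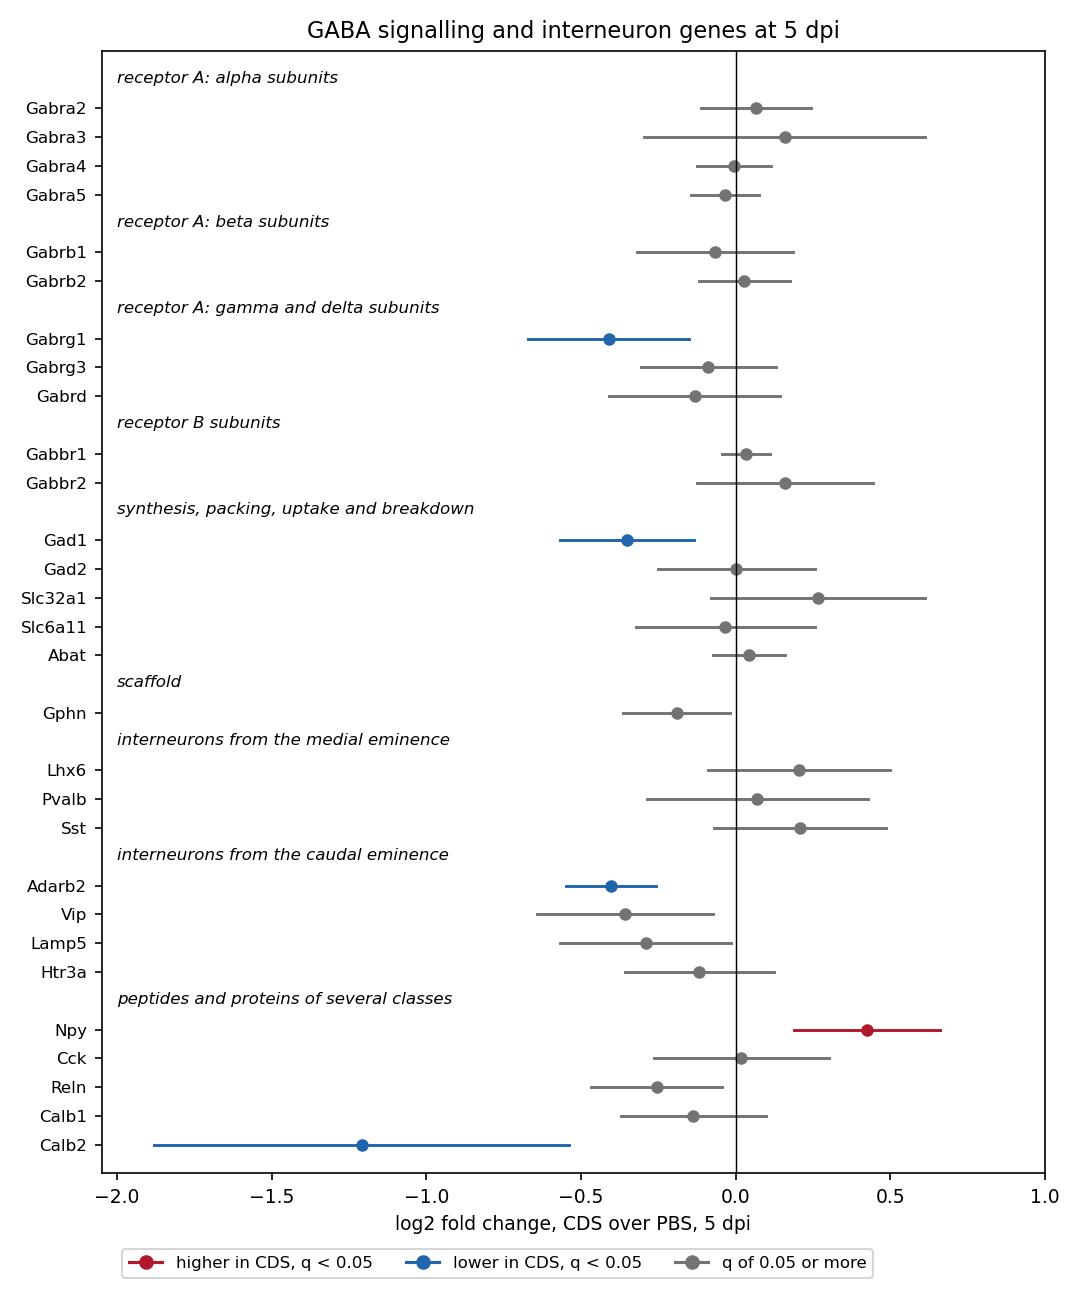
Log2 fold change of CDS over PBS at 5 dpi for the 29 genes, grouped by role, with points for the deposited values and bars for the 95% interval from the implied standard error. Blue and red points have q under 0.05. Of the 5 coloured genes, Calb2 lies farthest from 0 at -1.21 and has the widest interval, and Adarb2 at -0.40 has the narrowest.

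Of the 9 subunits of the GABA-A receptor in the set, 1 was called (11.1%, against 5.92% of all genes). Gabrg1, a gamma subunit (chromosome 5, 70751047 to 70842617, minus strand, GENCODE M21 on GRCm38), fell by 0.41 with an implied SE of 0.13, or 1.33-fold, in the authors' deposited table (q = 0.0397). Its 95% interval ran from -0.67 to -0.15. The call was lost with the trend of gene span removed, as described with gene length (-0.36, adjusted p = 0.0793). The other gamma subunit of the set, Gabrg3, stood at -0.09 (q = 0.735), and the delta subunit Gabrd, which forms receptors outside synapses, at -0.13 (q = 0.671) in the authors' deposited table. Among the alpha subunits, which shape the binding site for GABA and benzodiazepines, the authors' deposited table gave 0.06 for Gabra2, 0.16 for Gabra3, -0.01 for Gabra4 and -0.03 for Gabra5, with q from 0.762 to 0.973. The intervals differed in width. For Gabra5 and Gabra4 they reached no farther from 0 than -0.14 and -0.13 on the log2 scale, while that of Gabra3 ran from -0.30 to 0.61. The beta subunits Gabrb1 and Gabrb2 stood at -0.07 and 0.03 in the authors' deposited table (q = 0.842 and 0.889).

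Several of these genes are neighbours in the genome. Gabrg1, Gabra2, Gabra4 and Gabrb1 lie in 1 cluster of 1398 kb on chromosome 5, and of the 4 only Gabrg1, at one end of it, was called. Its nearest neighbour in the cluster, Gabra2, begins 207 kb from the start of Gabrg1 and had an interval from -0.11 to 0.24, which does not overlap that of Gabrg1. The difference between the neighbours was not tested. Gabra4 and Gabrb1 lie head to head and overlap by 196 bases. The libraries were stranded, but strand handling in counting is not given in the sources used here, so reads in that overlap could have been counted for either gene. Gabra5 and Gabrg3 are neighbours on chromosome 7, and neither was called.

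**Figure D2:**
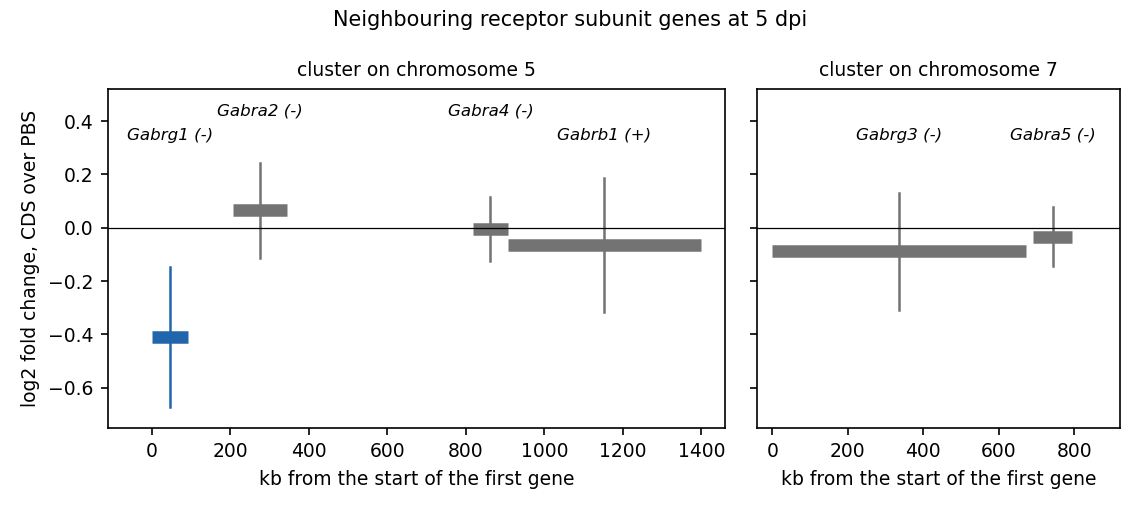
Log2 fold change of CDS over PBS at 5 dpi (vertical axis) against distance in kb from the start of the first gene, for the subunit genes in the clusters on chromosomes 5 and 7. Horizontal bars span each gene, vertical lines are 95% intervals from the implied standard error, and the sign after a name is its strand. The bar of Gabrg1, at -0.41, is the one called, and the other 5 genes lie between -0.09 and 0.06.

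Neither GABA-B subunit was called. Gabbr1, which binds GABA, stood at 0.03 with the smallest implied SE of the set, 0.04, in the authors' deposited table (q = 0.712), and its 95% interval ran from -0.05 to 0.11. Gabbr2, which couples the receptor to G proteins, stood at 0.16 in the authors' deposited table (q = 0.598), with an interval from -0.12 to 0.44.

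Of the 5 genes for making and handling GABA, 1 was called (20%, against 5.92% of all genes). Gad1 (plus strand of chromosome 2, 70553072 to 70602014) fell by 0.35, or 1.28-fold, in the authors' deposited table (implied SE 0.11, q = 0.0303), and its interval ran from -0.57 to -0.13. GENCODE places an antisense transcript, Gad1os, within it, and without the strand setting of the counting its reads cannot be told apart from those of Gad1. Gad2, the other decarboxylase, stood at 0.00 in the authors' deposited table (q = 0.995), with an interval from -0.25 to 0.26 that overlaps that of Gad1. Slc32a1, the vesicle transporter that all GABA neurons need, stood at 0.27 in the authors' deposited table (q = 0.427), on the other side of 0 from Gad1, with an interval from -0.08 to 0.61. The differences among these genes were not tested. Slc6a11, a GABA uptake transporter of astrocytes, was at -0.03 (q = 0.941) and Abat at 0.04 (q = 0.763) in the authors' deposited table. Gphn, which encodes gephyrin, the scaffold that holds GABA-A and glycine receptors at synapses, stood at -0.19 in the authors' deposited table (q = 0.206). Its interval, -0.36 to -0.02, left out 0, but it did not pass after adjustment.

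Among interneuron genes, 2 of 12 fell and 1 rose (25% called, against 5.92% of all genes). Adarb2, a brain protein of the RNA-editing deaminase family (plus strand of chromosome 13, 8202866 to 8768747), fell by 0.40, or 1.32-fold, in the authors' deposited table (implied SE 0.07, q = 9.88e-06). Its q ranked at 127 among all 20375 genes in the authors' deposited table, ahead of the next member, Npy, at 643. The other 3 members of the caudal branch lay below 0 as well but were not called. Vip, the peptide of cells that mainly inhibit other interneurons, stood at -0.36 (q = 0.134), Lamp5, which marks neurogliaform cells, at -0.29 (q = 0.233) and the serotonin receptor subunit Htr3a at -0.12 (q = 0.664) in the authors' deposited table. The median of these 4 caudal members was -0.32 in the authors' deposited table, and 3 of the 4 had an unadjusted p under 0.05.

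The 3 members of the medial branch lay on the other side of 0, and none was called. Lhx6, the transcription factor that specifies these cells, stood at 0.20 (q = 0.488), Pvalb, the calcium buffer of fast-spiking cells, at 0.07 (q = 0.888) and the peptide gene Sst at 0.21 (q = 0.446) in the authors' deposited table. All 3 had an unadjusted p above 0.05, and each interval included 0. The median of these medial members was 0.20 in the authors' deposited table, against -0.02 over all genes. The difference between the branches was not tested. In the wider interneuron list described below, genes of each branch lay on both sides of 0. Those named here were picked after their values were seen. Npas1, Nr2f2 and Sncg, which mark caudal cells, stood at 0.39 (called, q = 0.0285), 0.33 and 0.24 in the authors' deposited table. Sox6, Cort and Maf, which mark medial cells, stood at -0.33 (called, q = 0.0171), -0.30 and -0.23 in the authors' deposited table. Ndnf and Prox1, also of caudal cells, stood at -0.88 and -0.18 in the authors' deposited table. Syt2 and Satb1, also of medial cells, stood at 0.34 and 0.22, and none of these was called. Over all 35 genes of that list, 17 lay above 0 and 18 below.

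Genes shared by several classes went both ways. Npy, a peptide made by many somatostatin and neurogliaform cells (plus strand of chromosome 6, 49822710 to 49829507), rose by 0.43, or 1.34-fold, in the authors' deposited table (implied SE 0.12, q = 0.0126). Calb2, a marker of part of the Vip cells in cortex and of many interneurons in the olfactory bulb (chromosome 8, 110137502 to 110168210, minus strand), fell by 1.21, or 2.31-fold, in the authors' deposited table (q = 0.0129). Its implied SE of 0.34 was the largest of the set, and its interval ran from -1.88 to -0.54. Reln, the matrix protein reelin, stood at -0.26 (q = 0.152), the calcium buffer Calb1 at -0.14 (q = 0.583) and the peptide gene Cck, which excitatory neurons also transcribe, at 0.02 (q = 0.964) in the authors' deposited table.

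**Figure D3:**
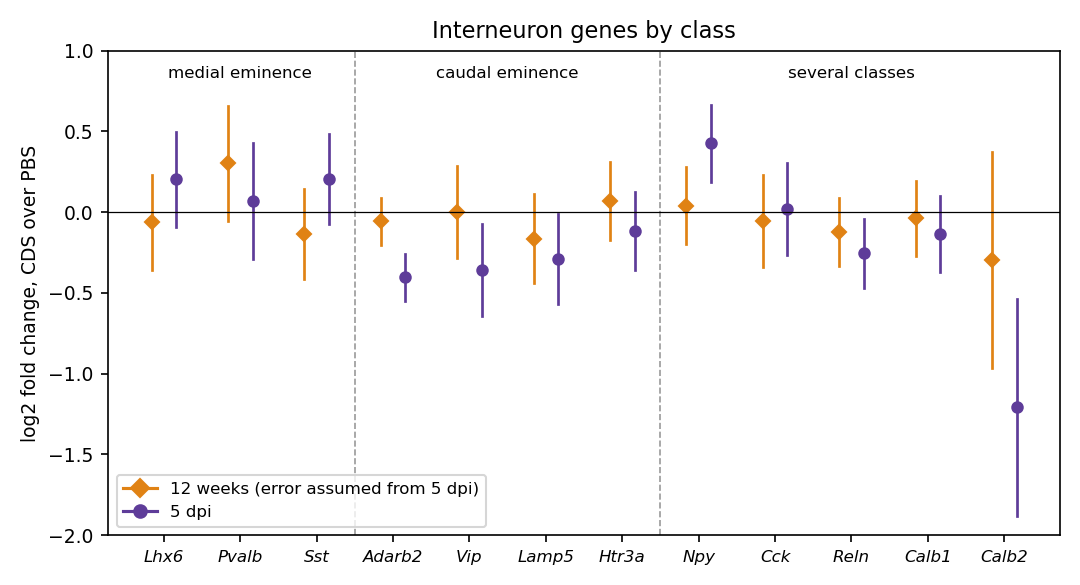
Log2 fold change of CDS over PBS for the 12 interneuron genes (horizontal axis), with orange diamonds for 12 weeks and purple circles for 5 dpi and bars for 95% intervals; at 12 weeks the error was assumed from 5 dpi. At 5 dpi the 4 caudal genes lie between -0.40 and -0.12 and the 3 medial genes between 0.07 and 0.21, and at 12 weeks every interval includes 0.

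Promoter windows are shown for the called genes, to set the differing sequence next to genes that fell and the 1 that rose. RefSeq windows on GRCm38.p6 were found for 24 of the 29 members; Calb2 had none. Each window holds the 250 bases before the annotated start. That of Gad1 was cut to 163 bases, at the edge of an exon annotated by GENCODE, whose gene and strand were not checked. The windows are chr13:8202616-8202865 on the plus strand for Adarb2, chr5:70842618-70842867 on the minus strand for Gabrg1, chr2:70561879-70562041 on the plus strand for Gad1 and chr6:49822460-49822709 on the plus strand for Npy. Capitals mark exact matches to TAATTA, the core read by many homeodomain factors, and to TATAAA, the letters of the TATA box. Matches were taken on either strand and at any distance from the start. In Gad1 the match, TTTATA, lies on the strand opposite to the gene, and whether it acts as a TATA box was not tested. The near match CATAAA close to the end of the Npy window is not marked.
Adarb2: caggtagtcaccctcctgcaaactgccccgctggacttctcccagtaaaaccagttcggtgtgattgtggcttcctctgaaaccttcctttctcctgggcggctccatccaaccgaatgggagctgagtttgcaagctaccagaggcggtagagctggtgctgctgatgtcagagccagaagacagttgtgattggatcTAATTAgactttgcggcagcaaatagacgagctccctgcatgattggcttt
Gabrg1: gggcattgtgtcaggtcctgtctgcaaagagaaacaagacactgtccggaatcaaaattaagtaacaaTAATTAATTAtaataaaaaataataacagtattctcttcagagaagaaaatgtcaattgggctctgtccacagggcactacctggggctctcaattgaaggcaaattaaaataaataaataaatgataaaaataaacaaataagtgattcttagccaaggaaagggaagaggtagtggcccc
Gad1: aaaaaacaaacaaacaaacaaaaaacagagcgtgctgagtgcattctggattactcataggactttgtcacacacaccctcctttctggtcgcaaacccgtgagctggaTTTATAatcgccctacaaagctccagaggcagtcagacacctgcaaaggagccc
Npy: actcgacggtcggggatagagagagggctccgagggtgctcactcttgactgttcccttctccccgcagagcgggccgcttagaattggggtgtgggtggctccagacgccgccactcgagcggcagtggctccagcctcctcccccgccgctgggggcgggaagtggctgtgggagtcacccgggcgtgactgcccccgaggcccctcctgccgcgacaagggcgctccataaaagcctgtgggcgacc

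TAATTA was found in the windows of Adarb2 and Gabrg1 and of none of the other matched members. That is 6.25% of the 32 member windows, near the 4.84% of the 32851 windows of all genes. TATAAA was found in those of Gad1, Vip, Gabra3 and Gabrb2, 15.6% of the member windows, and in 12.4% of all windows. The E-box CAGCTG (4271 of all windows) was found for Lhx6 alone, and the cyclic AMP element TGACGTCA (508 windows) for Sst alone. The 4 motifs were chosen after these sequences had been read, were searched on both strands, and none contains another. The G and C content also differed among the called genes, at 35.6% for Gabrg1, 52.8% for Adarb2, 58.0% for Gad1 and 69.2% for Npy over the whole window. A match is only a description of the letters in the window.

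Gene length varied widely among the members, from 1.39 kb for Sst to 671 kb for Gabrg3, and their median span of 71.7 kb exceeded the 24.99 kb of all protein-coding genes. Such libraries, made from total RNA after removal of ribosomal RNA, hold unspliced transcripts too. Among 342 protein-coding genes of at least 400 kb, 77.2% lay below 0 at 5 dpi, with a median of -0.11, against 36.3% and 0.06 for 3724 genes under 10 kb (the authors' deposited table). The 5 members of at least 400 kb, Gabrb1, Gabrg3, Gphn, Reln and Adarb2, all lay below 0, at a median of -0.19 (the authors' deposited table). The members did not follow the trend at every span. Of 7 members from 100 to 400 kb, 2 lay below 0 (median 0.04), where 65.1% of genes did (median -0.05). From 10 to 50 kb, 6 of 9 members lay below 0, where 47.7% of genes did. Under 10 kb, 1 of 5 members did. With the median of genes of like span subtracted, an alternative chosen after the data were seen, Adarb2 stood at -0.32 (adjusted p = 0.00114), Gad1 at -0.33 (adjusted p = 0.0411), Npy at 0.38 (adjusted p = 0.028) and Calb2 at -1.22 (adjusted p = 0.0106), all still called. Of the 5 calls, that of Gabrg1 alone was lost.

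Wider lists of the same pathways were read beside the 5.92% of all genes called and the 19.1% with an unadjusted p under 0.05. The list of further GABA pathway genes held, among others, genes of transport, precursor supply and receptor trafficking. It also held the receptor subunits Gabrq, Gabrr2 and Gabrr3. Of the 29 genes that were measured, 1 was called (3.45%), and it was not a receptor subunit. Gabarapl1, of the family that binds GABA-A receptors and autophagy membranes, rose by 0.14 in the authors' deposited table (q = 0.0499). The median of the list was -0.04 in the authors' deposited table, and 5 genes above and 2 below 0 had an unadjusted p under 0.05 (24.1%). Of 35 further interneuron genes, 2 fell and 2 rose (11.4%), and 4 above and 6 below 0 had an unadjusted p under 0.05 (28.6%), with a median of -0.01 (the authors' deposited table). Dlx6os1, a long non-coding RNA of the GABAergic lineage, fell by 0.80 (q = 0.000917) and Sox6, a transcription factor of medial interneurons and of oligodendrocyte precursors, fell by 0.33 (q = 0.0171) in the authors' deposited table. The transcription factor Npas1 rose by 0.39 (q = 0.0285) and Nxph2, a secreted neurexin ligand, rose by 0.40 (q = 0.027) in the authors' deposited table. Dlx6os1 lies antisense to Dlx6, which stood at 0.12 (q = 0.847) in the authors' deposited table.

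Markers of other cells moved at the same time. Of 14 genes listed for olfactory interneurons and migrating neuroblasts, 5 fell (35.7%, against 5.92% of all genes called). In that list 12 lay below 0 and the median was -0.37 in the authors' deposited table. These cells also use Gad1 and, in part, Calb2. Not all genes of the list are particular to them, and a loss of these cells was not tested. Dlx1, Dlx2, Dlx5 and Dlx6 of the list stood at -0.14, -0.29, 0.05 and 0.12 in the authors' deposited table, and none was called. The 4 genes of the list with the smallest q were Gsx1 at -4.62, Pbx3 at -1.16, Sp8 at -1.72 and Dcx at -0.66 in the authors' deposited table. Their implied SEs were 1.08, 0.30, 0.48 and 0.20, where the median over protein-coding genes was 0.115, so these folds are not closely known. All 8 markers of oligodendrocyte precursors fell (from -4.53 to -1.08), as did all 10 of homeostatic microglia (from -2.82 to -1.21), in the authors' deposited table. Of 12 astrocyte markers, Ntsr2 alone was called, at 0.28, with a list median of -0.02; of 14 excitatory neuron markers, Neurod2 alone, at 0.39, and that list had its median at 0.07 (the authors' deposited table). An unadjusted p under 0.05 was found for 3 astrocyte markers above 0 and 1 below, and for 6 excitatory markers above 0 and 1 below, that is 7 of 14, where the share of all genes was 19.1%. By smallest q, Foxp2, Rorb and Emx1 came after Neurod2, at 0.35, -0.39 and 0.32 in the authors' deposited table. None of 10 striatal markers was called (median 0.26, the authors' deposited table), and 1 had an unadjusted p under 0.05. The part of these cells in the values of Gad1, Calb2, Gabrg1 and Adarb2 was not tested.

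**Figure D4:**
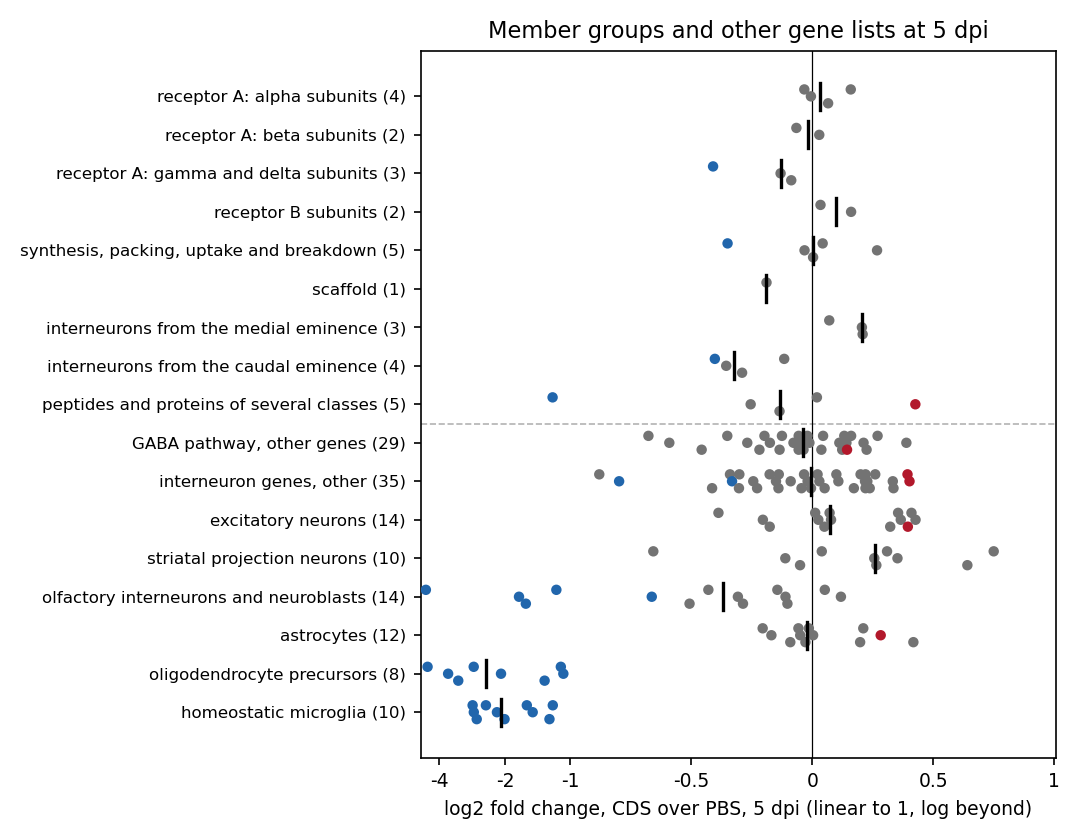
Log2 fold change of CDS over PBS at 5 dpi for each gene of the 9 member groups (above the dashed line) and of 8 other lists (below it), with the number of genes in brackets; the axis is linear to 1 and logarithmic beyond. Blue and red points have q under 0.05, and black bars are medians. The caudal group has a median of -0.32 and the olfactory list one of -0.37, while precursors and microglia lie farther left.

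At 12 weeks none of the 29 genes was called in the DESeq2 results of the authors' deposited table, where 0.191% of all genes were. All 29 shared the highest q of 0.999997 with nearly all other genes of the table, so their p at 12 weeks could not be recovered, other than that each was at least 0.0133, and a count at an unadjusted p under 0.05 cannot be given. The members lay between -0.29 and 0.30 in the authors' deposited table. Calb2 was the lowest, at -0.29, and Pvalb the highest, at 0.30. The 5 genes called at 5 dpi stood at -0.06 for Adarb2, 0.04 for Npy, -0.29 for Calb2, 0.10 for Gad1 and -0.11 for Gabrg1 in the authors' deposited table. Gad2 and Slc32a1 lay beside Gad1 at this time, at 0.10 and 0.12 in the authors' deposited table. The caudal genes had a median of -0.03 and the medial genes of -0.06 in the authors' deposited table. With the error of 5 dpi assumed, the 95% interval was -0.20 to 0.09 for Adarb2, -0.11 to 0.32 for Gad1 and -0.97 to 0.38 for Calb2, so that a fall of Calb2 at 12 weeks was not bounded closely. All 8 markers of oligodendrocyte precursors were still lower at 12 weeks (median -0.88), and all 10 of homeostatic microglia lay below 0 with 1 called (median -0.43), in the authors' deposited table. All 10 striatal markers lay above 0 at 12 weeks, with a median of 0.37 and none called, in the authors' deposited table; the part of these cells in the members' values was not tested.

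The change between times was tested for each gene as the fold change at 12 weeks minus that at 5 dpi, over all 20375 genes. None of the 29 members passed at an adjusted p under 0.05, where 0.432% of all genes did. At an unadjusted p under 0.05 there were 3 members, 10.3%, against 7.49% of all genes. Adarb2 stood at -0.06 at 12 weeks and -0.40 at 5 dpi in the authors' deposited table, a difference of 0.35 (95% interval 0.14 to 0.55, adjusted p = 0.127). Gad1 stood at 0.10 at 12 weeks and -0.35 at 5 dpi in the authors' deposited table, a difference of 0.45 (0.15 to 0.76, adjusted p = 0.238). For Npy the values were 0.04 at 12 weeks and 0.43 at 5 dpi in the authors' deposited table, a difference of -0.38 (-0.72 to -0.05, adjusted p = 0.526). Calb2 had the largest difference, 0.91, with an interval from -0.03 to 1.86 (adjusted p = 0.691), and Gabrg1 one of 0.30 (-0.07 to 0.67, adjusted p = 0.802). The loss of the calls at 12 weeks was therefore not shown to be a difference between times.

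**Figure D5:**
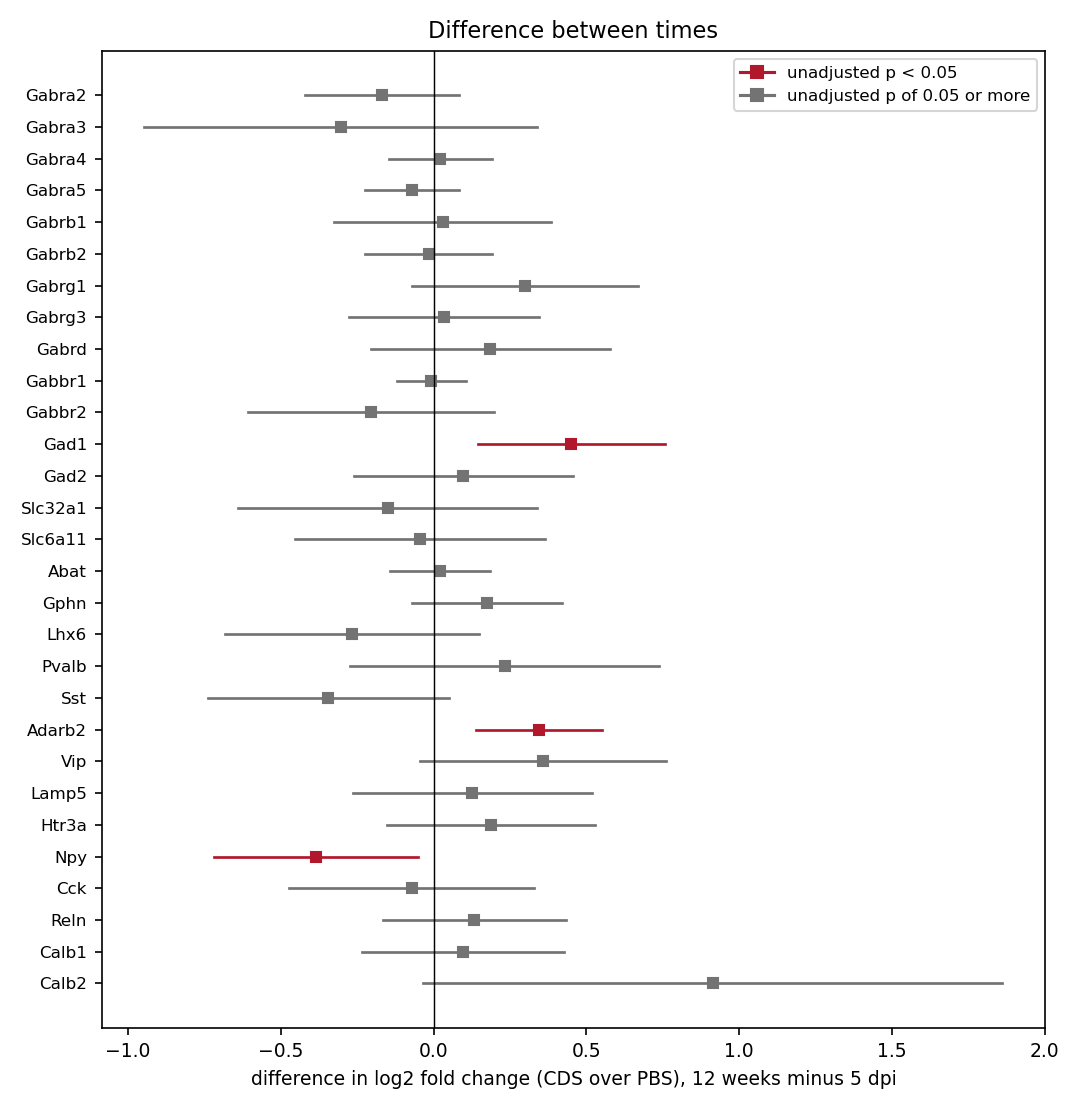
Difference in log2 fold change (CDS over PBS), 12 weeks minus 5 dpi, for the 29 genes, with 95% intervals that assume the 5 dpi error at 12 weeks. Red squares (Gad1, Adarb2 and Npy) have an unadjusted p under 0.05, and none passes after adjustment over all genes.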

How the data were processed

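Total RNA from frozen tissue was made into stranded, ribosome-depleted libraries from 400 ng, per the labels' protocols. STAR, featureCounts and DESeq2 were used on GRCm38.p5, per the submitters' processing notes, without versions. For each time the authors deposited a q-value and a log2 fold change (CDS over PBS) for every gene, per the file headers. Depth is unknown.

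The members and all lists were chosen with earlier results of these data known. Every member is described, with every called gene of the pathway lists and up to 4 genes of each cell type list by smallest q. Symbols were blank for 4083 genes, of which 4015 were named through their ID. Spans came from GENCODE M21, which held 20306 IDs, with the same primary chromosomes as the build of the authors.

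The q-values were taken as a Benjamini-Hochberg adjustment over the table, so p is q times rank over 20375, and the implied standard error is the fold change over its z; this holds only if the fold changes were not shrunken. For members, bounds left by ties lay at most 1.00-fold apart. At 12 weeks p was recovered for 272 genes, where the error was 0.994 of that at 5 dpi (median), and members took the 5 dpi error, or the smallest the tied q allows if larger. The difference between times is a two-sided z with Benjamini-Hochberg adjustment over all genes. Python 3.11.15, pandas 2.3.3 and scipy 1.17.1 were used, and the steps were tested on simulated data.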

Additional observations from a re-analysis of the deposited data

How the results depend on the processing

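The 5 calls at 5 dpi were the same 5 genes at q under 0.1, with a fold of at least 1.2, and with p adjusted over protein-coding genes alone. The number was 1, Adarb2, both at q under 0.01 and with Bonferroni adjustment, and 4 with the trend of gene span removed, without Gabrg1. At 12 weeks the count was 0 under all 5 alternatives. None of them could have given another count, because all 29 members shared the highest q of 0.999997. For the difference between times the count was also 0 under Bonferroni adjustment, which can only be stricter. It was 0 with the 5 dpi error alone too, but that error was already the one used for every member. With only genes whose p was recovered at both times no member was left to test. Subtracting the median of all genes turned the sign of 2 group medians at 5 dpi, to 0.02 for the 17 signalling genes and 0.00 for the beta subunits; subtracting that of protein-coding genes turned none. No paired analysis was possible because the tables hold no values per sample; for the same reason no sample could be left out. Folds of Calb2 and Gabra3, with implied errors of 0.34 and 0.23, are the least closely known at 5 dpi.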
